A study of Homo sapiens with 14 samples.

Results

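The response to 2 hours of 4-hydroxytamoxifen was measured in LY2 breast cancer cells given an siRNA against SRC-1, by comparing 2 tamoxifen-treated with 4 untreated arrays of such cells. These 6 arrays were taken by their titles from the 14 of the series. LY2 is an MCF-7-derived line that grows in the presence of anti-estrogens, and the labels call it tamoxifen resistant. Cells of all groups had been cultured with 10 nM 4-hydroxytamoxifen, kept 72 hours without it in medium stripped of steroids, and transfected with 40 nM siRNA for 24 hours. Treated cells then received 100 nM 4-hydroxytamoxifen and untreated cells 0.01% ethanol. Treated arrays carried the replicate numbers 1 and 3, and untreated arrays the numbers 1 to 4. The other 8 arrays, 4 untreated and 4 treated, came from cells given a scrambled control siRNA. All groups are 1 cell line, and nothing in the labels says whether replicates were separate cultures, so p-values measure the spread between these arrays.

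Tamoxifen binds the estrogen receptor, and the bound receptor recruits corepressors or coactivators to its target genes depending on the cell. SRC-1, the product of NCOA1, is a p160 coactivator that binds nuclear receptors and brings in histone acetyltransferases. In breast cancer it has been studied as a partner of the estrogen receptor and of other transcription factors in endocrine-resistant cells. After 2 hours of ligand, changes in RNA are limited to early events, among which short-lived transcripts are the most easily seen.

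The NCOA1 transcript was low in both SRC1-siRNA groups. The mean of the 4 NCOA1 probe sets was 8.01, 7.53, 7.27 and 7.98 in the untreated SRC1-siRNA arrays and 7.91 and 7.56 in the treated ones. Each value is a log2 signal, and a probe set is a group of oligonucleotides for 1 transcript. Treated and untreated arrays overlapped, and the means differed by 0.04 (exact two-sided permutation p = 1.0 over 2 against 4 arrays). Both groups lay below every control-siRNA array, which ran from 8.77 to 9.27. The exact two-sided permutation p was 0.0286 without and 0.133 with tamoxifen, each the smallest its design allows. Luminal epithelial markers were present, with a mean over 20 genes of 11.23 to 11.32 in untreated and 11.30 to 11.33 in treated SRC1-siRNA arrays. Fibroblast markers averaged 3.37 to 3.46, and immune cell and endothelial markers 2.74 to 3.07, in these 6 arrays, near the median of all signals of 3.46 or below it. The endothelial mean was 2.86 to 2.94 in untreated and 2.74 and 2.83 in treated arrays, lower with tamoxifen, and 2 of its 11 genes were above the median signal. Array medians ran from 3.44 to 3.51 over the 14 arrays, and their number, not a depth, limits precision.

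Of 54613 probe sets, 824 passed the threshold, 1.51% of those tested. The test was a linear model over the 4 groups (limma, Benjamini-Hochberg adjusted p under 0.05), and a probe set past it is called here. Of them, 494 (0.905%) were higher with tamoxifen and 330 (0.604%) lower. In such bulk samples, less RNA per cell and fewer cells of a kind cannot be told apart. The median size among called probe sets was 0.51 on the log2 scale, and 39 reached 2-fold, 35 higher and 4 lower. For all 824, both treated arrays lay on 1 side of all 4 untreated arrays, which held for 24.4% of all probe sets (10.8% above and 13.6% below). With each array centred on its own median, 909 were called and 45.4% of them were higher, against 60.0% of the 824. When only these 6 arrays were fitted, 109 were called and 86.2% of them were higher.

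These calls rest on few arrays. Without treated replicate 1, limma called 3 probe sets, in PHLDA1, HBS1L and 1 without a gene name (1554391_at), each at an adjusted p of 0.0452. With 1 treated array left, its spread is taken from the other groups, so calls that held in this fit assume that it varies like them. Without treated replicate 3 limma called 656, of which 317 were among the 824. Leaving out untreated replicate 1, 2, 3 or 4 gave 437, 435, 365 and 352. Of the 824, 246 stayed called in all 4 of these fits. A model that also fitted the replicate number called 0 (0.0%), with a lowest adjusted p of 0.0791. All 824 kept their direction there with an unadjusted p under 0.05. They had been selected in these same arrays, so this is no separate support. Such a p was found for 5013 of all probe sets, against 9178 in the model without the replicate number. Whether the values had been adjusted for replicate before deposit is not stated in the labels or headers and was not tested, and the p-values take the arrays as independent.

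The pairs of the same replicate number, each taken alone, differed widely. Treated minus untreated differences had an SD over probe sets of 0.28 in replicate 1 and 0.25 in replicate 3. Over 54613 probe sets the differences of both pairs correlated with r = 0.136, a description across genes, which are not independent. The 6 couples of control-siRNA pairs gave r from 0.0325 to 0.272. A higher treated value in both pairs was seen for 23.4% of probe sets and a lower one for 27.6%. A change of at least 2-fold in both pairs was seen in 29 probe sets upward and 3 downward, 0.0586% of all.

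**Figure D1:**
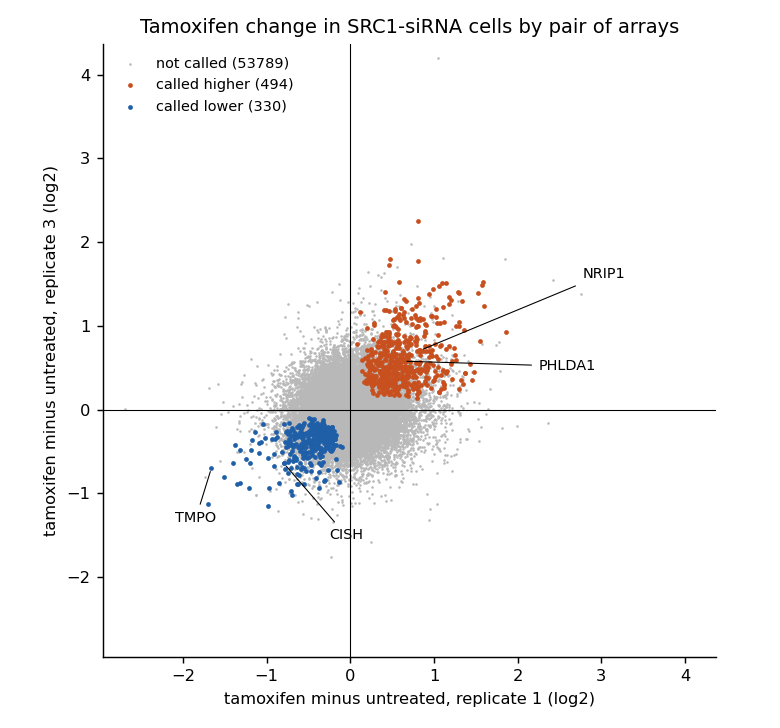
Each point is 1 of 54613 probe sets, with the treated minus untreated log2 difference of the replicate 1 pair on the x axis and of the replicate 3 pair on the y axis. The 494 probe sets called higher (orange) and the 330 called lower (blue) lie in the quadrants where both pairs share a direction, on the rim of a round cloud of uncalled ones.

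PHLDA1 was higher and CISH lower with tamoxifen, each called at several probe sets and each also called in control-siRNA cells. PHLDA1 encodes a pleckstrin-homology-like protein known as an early-response gene of growth factor and ERK signalling. CISH encodes a member of the SOCS family, which dampens cytokine receptor signalling and is itself induced by STAT5. Because the data concern their rapid transcript changes, the 250 bases before each RefSeq start (GRCh38.p14) are shown, with capitals on matches to the STAT-like motif TTCNNNGAA. CISH lies at chr3:50611775-50612024 on the minus strand and PHLDA1 at chr12:76031777-76032026 on the minus strand.
CISH: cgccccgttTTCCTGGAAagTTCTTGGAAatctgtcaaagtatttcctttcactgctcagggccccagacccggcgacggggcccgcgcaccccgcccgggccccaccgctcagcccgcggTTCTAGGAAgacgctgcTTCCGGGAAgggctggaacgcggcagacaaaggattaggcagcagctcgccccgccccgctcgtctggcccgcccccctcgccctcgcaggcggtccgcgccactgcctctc
PHLDA1: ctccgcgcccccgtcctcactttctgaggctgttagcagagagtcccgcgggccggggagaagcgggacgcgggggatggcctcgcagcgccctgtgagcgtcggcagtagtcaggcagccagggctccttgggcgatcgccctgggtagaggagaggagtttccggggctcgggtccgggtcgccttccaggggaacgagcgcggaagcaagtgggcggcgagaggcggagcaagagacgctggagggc

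The CISH window held 4 such matches, at 241 to 233, 230 to 222, 129 to 121 and 112 to 104 bases before the start. At least 1 match was found in 6.57% of 35116 RefSeq promoter windows and at least 4 in 5 of them (0.0142%). The PHLDA1 window held none of the 5 motifs searched, which says only that these letters are not in it.

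PHLDA1 rose. At probe set 217996_at the untreated arrays read 8.82, 8.96, 8.99 and 8.87 and the treated arrays 9.46 and 9.56. Both treated arrays stood above all untreated ones, a gap larger than the spread within either group. The change was 0.60 ± 0.06 (SE), or 1.51-fold, with a limma adjusted p of 0.00369, and it stayed called with any 1 of the 6 arrays left out (highest adjusted p = 0.0452). At 225842_at the values were 9.12, 9.25, 9.19 and 9.43 untreated and 9.62 and 9.86 treated, a called change of 0.49 ± 0.10 (limma adjusted p = 0.0301). That call was lost with any 1 array but untreated replicate 4 left out, with an adjusted p of up to 0.146 (without treated replicate 3). The other 4 PHLDA1 probe sets, which were not called, gave 0.30 to 0.41, so that all 6 had the same sign. In control-siRNA cells 3 of the 6 were called, and 217996_at changed by 0.62 ± 0.05 (limma adjusted p = 4.11e-04), and the difference between the siRNAs was -0.02 (adjusted p = 0.898).

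CISH fell at each of its 3 probe sets. At 221223_x_at the untreated arrays read 4.58, 4.55, 4.66 and 4.61, a tight group, and the treated arrays 3.78 and 4.02. At 223377_x_at they read 5.09, 5.09, 5.19 and 5.26 untreated and 4.41 and 4.58 treated. At 223961_s_at they read 3.80, 4.06, 4.07 and 3.81 untreated and 3.50 and 3.23 treated. No treated array reached an untreated one at any of the 3. The changes were -0.70 ± 0.11, -0.67 ± 0.10 and -0.57 ± 0.13 (limma adjusted p = 0.0118, 0.0118 and 0.0483). Treated signals at 223961_s_at lay at the median of all signals, 3.46, so no fold is given. Without treated replicate 1 the adjusted p values were 0.156, 0.156 and 0.161, so all 3 calls then ended, and the third ended with any 1 of the 6 arrays left out (0.0583 to 0.207). Control-siRNA cells showed -0.60 and -0.52 at the first 2 (adjusted p = 0.0343 and 0.0382) and -0.20 at the third, which was not called (0.395). The suffix x marks probes that can bind related transcripts.

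**Figure D2:**
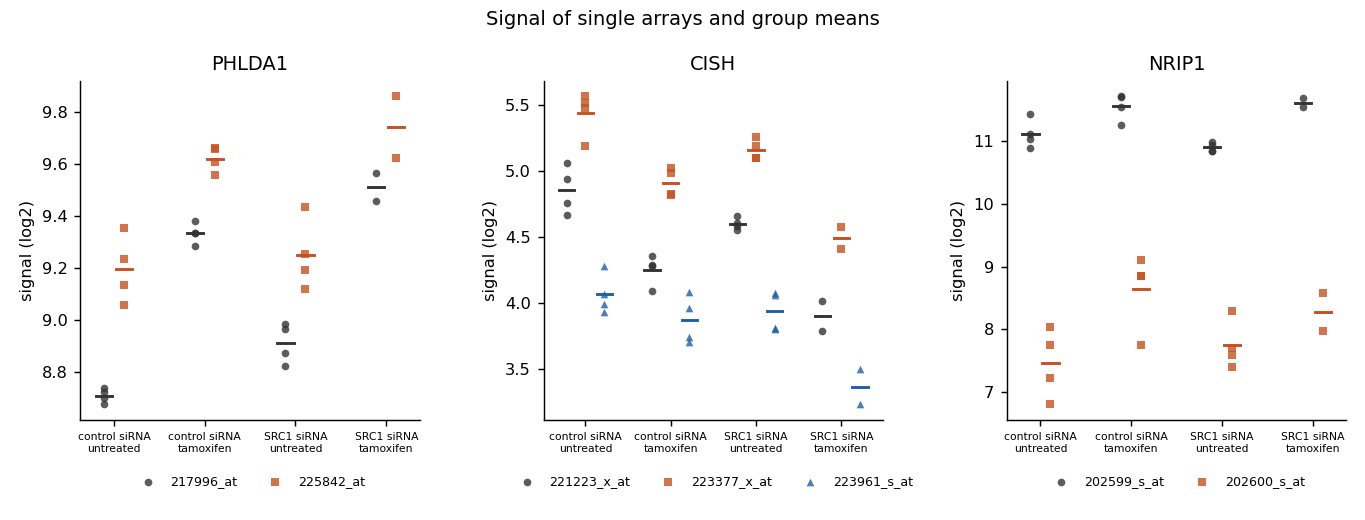
Log2 signals of single arrays (points) and group means (bars) for 2 probe sets of PHLDA1, all 3 of CISH and both of NRIP1, in the 4 groups. At 217996_at of PHLDA1 the treated arrays of either siRNA stand above their untreated ones, at 221223_x_at of CISH they stand below, and at 202600_s_at of NRIP1 the groups overlap.

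NRIP1 was the one called member of 26 measured estrogen-induced genes, where 2.33% of all genes had a called probe set. It encodes RIP140, a corepressor that binds agonist-bound nuclear receptors and whose own gene is an estrogen target. At 202599_s_at the untreated arrays read 10.85, 10.93, 10.84 and 10.98 and the treated arrays 11.68 and 11.54, with no overlap. The change was 0.71 ± 0.14, or 1.64-fold (limma adjusted p = 0.0297). The call ended when any 1 of the 6 arrays was left out, with adjusted p from 0.051 (untreated replicate 4) to 0.245 (treated replicate 1). The second probe set, 202600_s_at, read 7.71, 7.39, 7.59 and 8.29 untreated and 8.58 and 7.98 treated. There the groups overlapped and the change of 0.54 ± 0.39 was not called (adjusted p = 0.524). In control-siRNA cells the changes of both, 0.44 and 1.18, were not called (0.111 and 0.115).

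The other estrogen-induced genes gave smaller values in the same direction more often than the reverse. For each gene the probe set of highest signal was used, a choice within a gene and no comparison of RNA amounts between probe sets. Of the 26, 14 were higher in both pairs and 4 lower in both, where 21.4% and 27.8% of all 19775 genes were. The median was 0.06, against -0.02 over all genes, with a range of 0.03 to 0.16 when 1 of the 6 arrays was left out. The retinoic acid receptor RARA was at 6.12, 6.11, 6.19 and 6.23 untreated and at 6.67 and 6.69 treated, above all untreated arrays. Its change of 0.51 ± 0.16 was not called (limma adjusted p = 0.118), nor was that of RAPGEFL1, 0.46 ± 0.18 (0.224), or of the growth factor binding protein IGFBP4, 0.37 ± 0.14 (0.182). The classical targets TFF1, GREB1 and PGR gave -0.04, 0.09 and -0.06, and the receptor itself, ESR1, gave -0.04 ± 0.06. In control-siRNA cells the median of the list was 0.10, and RARA, RAPGEFL1 and IGFBP4 gave 0.38, 0.61 and 0.33, none of them called. The list was composed with earlier results of these data known.

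**Figure D3:**
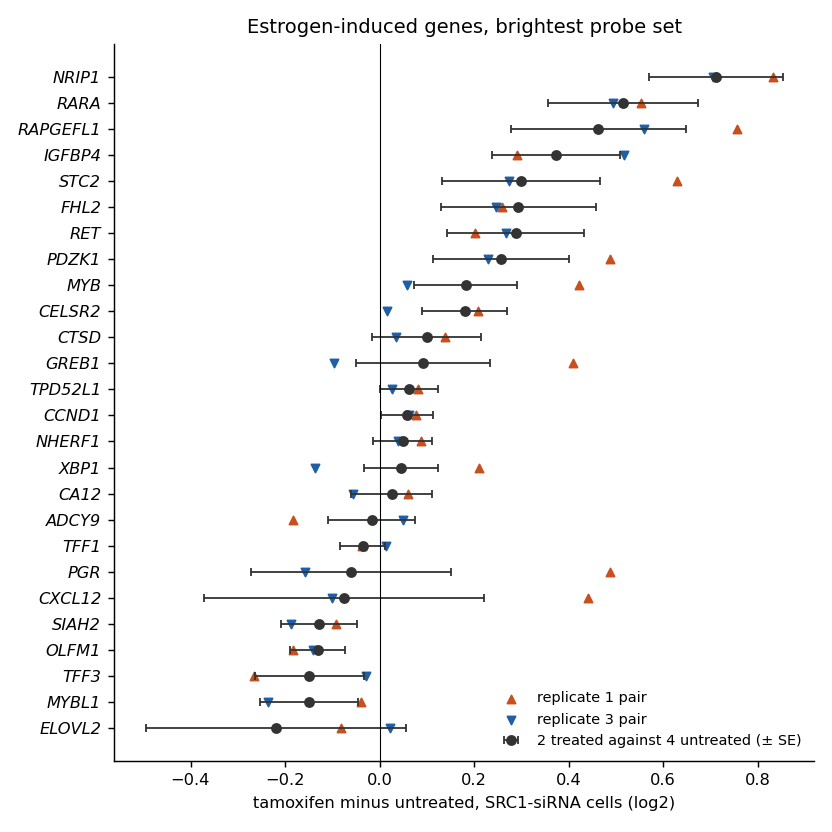
Tamoxifen change (log2) of 26 estrogen-induced genes in SRC1-siRNA cells at the probe set of highest signal, with 2 treated against 4 untreated arrays (black, ± SE) and each pair alone (triangles). NRIP1 at the top is the one called member, and both triangles lie right of 0 for 14 genes and left of it for 4.

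Beyond these, 460 of 19775 genes had at least 1 called probe set (2.33%), 210 with one higher (1.06%) and 252 with one lower (1.27%). Their probe sets seldom moved together. Among the 376 called genes with 2 or more probe sets, 357 had 1 called, 17 had 2 or more called in 1 direction and 2 had calls in both directions. Of the 1079 uncalled or further probe sets of these genes, 56.7% had the sign of the leading one, where any pair of probe sets of a gene shared its sign in 55.2% of 42435 pairs. Their median change along the leading probe set was 0.03, against 0.49 for the leading ones themselves. Among those above the median signal the share was 59.2% and the median 0.04.

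Among the genes with 2 or more probe sets, 5 had every probe set called in 1 direction. Besides CISH these were LONRF2, CHST9, GSAP and ALYREF, of which GSAP and ALYREF were chosen after their values were seen. LONRF2, a RING-type ubiquitin ligase, rose at 225996_at from 10.05, 10.23, 10.38 and 10.27 to 10.80 and 10.77. It also rose at 235977_at, from 9.15, 9.11, 9.24 and 8.93 to 9.76 and 9.84. The changes were 0.55 ± 0.10 and 0.69 ± 0.15 (limma adjusted p = 0.021 and 0.0391), and neither was called in control-siRNA cells, where they were 0.28 and 0.41. CHST9, a sulfotransferase of N-acetylgalactosamine, rose by 0.69 ± 0.11 and 0.74 ± 0.11 (adjusted p = 0.0126 and 0.0118). The second of these probe sets, 224400_s_at, had a mean signal of 3.40, just below the median of 3.46. GSAP, the gamma-secretase activating protein, rose by 0.50 ± 0.10 and 0.32 ± 0.07 (0.0258 and 0.0499). ALYREF, an adaptor of mRNA export, fell at 226320_at from 8.86, 8.91, 8.80 and 8.77 to 8.19 and 8.47, and at 226319_s_at from 8.06, 8.04, 8.12 and 8.03 to 7.32 and 7.73. Its changes were -0.50 ± 0.08 and -0.54 ± 0.12 (0.0118 and 0.0426). Of the 8 probe sets of these genes, LONRF2 235977_at, GSAP 222150_s_at and ALYREF 226319_s_at lost their call with any single untreated array left out. GSAP 213142_x_at kept its call only without untreated replicate 1. None of these 8 probe sets was called without treated replicate 1, with adjusted p from 0.129 to 0.434.

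SRSF4, a splicing factor of the SR family, rose at 2 of 5 probe sets. At 242837_at the arrays read 8.30, 8.22, 7.79 and 7.92 untreated and 8.82 and 8.85 treated, and the change was 0.78 ± 0.16 (limma adjusted p = 0.0318). At 241245_at it was 0.89 ± 0.15 (0.0161). A further pair of probe sets gave 0.86 and 0.58 without a call, and 201696_at gave 0.03, so the probe sets of this gene split. DAAM1, a formin of Wnt planar polarity signalling, rose by 0.54 and 0.83 at its 2 probe sets of lowest signal, while the other 3, all above 11, gave -0.05 to 0.00043. ANKRD28 and the calcium channel subunit CACNB2 rose at 2 of 4 and 2 of 6. At CACNB2 1559419_at the mean signal was 2.10, below the median of 3.46. DAAM1 244062_at, CACNB2 207776_s_at and the 2 called probe sets of ANKRD28 lost their call with any single untreated array left out. CACNB2 1559419_at kept its call only without untreated replicate 1. Calls of SRSF4, DAAM1, ANKRD28 and CACNB2 ended without treated replicate 1 (adjusted p from 0.118 to 0.402).

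TMPO and TNIK had calls in opposite directions. TMPO, which encodes lamina-associated polypeptides of the nuclear envelope and nucleoplasm, read 8.13, 8.01, 7.91 and 7.87 untreated and 6.47 and 7.21 treated at 209754_s_at. This was the steepest called fall with a gene name, -1.14 ± 0.15 (limma adjusted p = 0.00632) and the treated arrays stood apart from each other. Without treated replicate 1 the adjusted p was 0.057. At 237863_at TMPO rose by 0.68 ± 0.13 (adjusted p = 0.0245), from 3.96, 3.61, 3.52 and 3.75 to 4.38 and 4.41. Its other 3 probe sets gave -0.12, -0.08 and -0.05. TNIK, a kinase of Wnt signalling, fell by 0.46 at 213107_at and rose by 0.68 at 239288_at (0.0403 and 0.0317). The mean signal was 5.13 at 213107_at but 2.45 at 239288_at, below the median of 3.46. Without treated replicate 1 none of these 4 calls held (0.057 to 0.297).

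The 12 largest rises and 12 largest falls of named genes, at probe sets with a mean above the median signal, ranged in size from 0.80 to 1.29. They came mostly from 1 probe set of a gene. Of the 24 genes, 22 had further probe sets, 77 in all, of which 47 had the same sign and 2 were called: one of CFAP70 in the same direction and one of TMPO in the opposite. In 18 genes another probe set had a higher signal, and its change was between 0.02 and 0.26 in size, with a median of 0.08. Without treated replicate 1, 1 of the 24 (HBS1L) stayed called, and without treated replicate 3, 19 did.

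FAM184A had the largest rise, from 3.62, 3.71, 3.29 and 4.15 to 5.20 and 4.77, a change of 1.29 ± 0.21 (limma adjusted p = 0.0126). Its one other probe set gave 0.10. PAPOLA, poly(A) polymerase alpha, rose at 215374_at from 4.17, 4.69, 4.38 and 4.59 to 6.02 and 5.31, a change of 1.21 ± 0.17 (0.0117). Its 5 other probe sets gave -0.17 to -0.02, and the one of highest signal, 12.77, gave -0.02, so no other probe set followed. U2SURP, an mRNA splicing protein, rose by 1.18 ± 0.25 at 236696_at, and its 4 other probe sets were all above 0, from 0.08 to 0.51. CFLAR, the caspase-8 inhibitor FLIP, rose by 1.16 ± 0.18 at 217654_at, and 4 of its 13 others had that sign.

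SMURF1, a ubiquitin ligase of SMAD proteins, rose at 232665_x_at from 8.35, 7.78, 7.87 and 7.68 to 9.09 and 9.07, a change of 1.16 ± 0.18 (limma adjusted p = 0.0122). Its probe set of highest signal gave 0.26, the largest such value among the 18 genes. TTLL5, a tubulin polyglutamylase, and VPS13C, a lipid transfer protein, rose by 1.16 ± 0.19 and 1.14 ± 0.18, with -0.02 and 0.04 at the probe set of highest signal. The axonemal dynein gene DNAI4 rose by 1.13 ± 0.26 and LOC100505915 by 1.10 ± 0.20. ATP5F1C, the gamma subunit of ATP synthase, rose by 1.10 ± 0.24 at 214132_at, while its 3 other probe sets gave -0.09 to -0.04. CFAP70, a protein of cilia, rose at 2 of 3 probe sets, by 0.92 ± 0.19 and 0.68 ± 0.15. The second of these, 229169_at, had a mean signal of 2.99, below the median of 3.46.

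HBS1L, a GTPase of ribosome rescue, was the other named gene whose call survived every omission of 1 array. At 209315_at it read 4.20, 4.15, 4.30 and 4.14 untreated and 4.99 and 5.28 treated, a change of 0.94 ± 0.11 (limma adjusted p = 0.0046, and 0.0452 at most with an array left out). The treated arrays stood clear of the untreated ones, which lay within a narrow band. Its 3 other probe sets gave -0.12 to -0.02, so the rise was confined to 1 of the 4 measured.

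Falls had the same form. DYNC1I2, a cytoplasmic dynein chain, fell at 236698_at from 4.39, 3.90, 4.00 and 4.25 to 2.88 and 3.19, a change of -1.10 ± 0.14 (limma adjusted p = 0.00573), with -0.34 and -0.08 at its other 2. SYNC, the intermediate filament protein syncoilin, has 1 probe set and fell from 6.76, 6.54, 6.72 and 6.63 to 5.44 and 5.84, a change of -1.02 ± 0.18 (0.0192). The histone gene H2AC15 fell by 0.99 ± 0.18 and SSX2IP, a centriolar satellite protein, by 0.95 ± 0.18. The peptide transporter SLC15A2 and the Golgi tether subunit COG6 both fell by 0.90, and BCL10, an adaptor of NF-kappa-B signalling, fell by 0.88. The proteoglycan CSPG5 and the transcription elongation factor AFF3 both fell by 0.83. EIF4G2, a translation initiation factor, and PPP2R5E, a subunit of protein phosphatase 2A, both fell by 0.80. All 5 other AFF3 probe sets and all 4 of PPP2R5E had the same sign, but those of highest signal gave only -0.05 and -0.11. EIF4G2 at its highest signal of 12.83 gave -0.03.

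**Figure D4:**
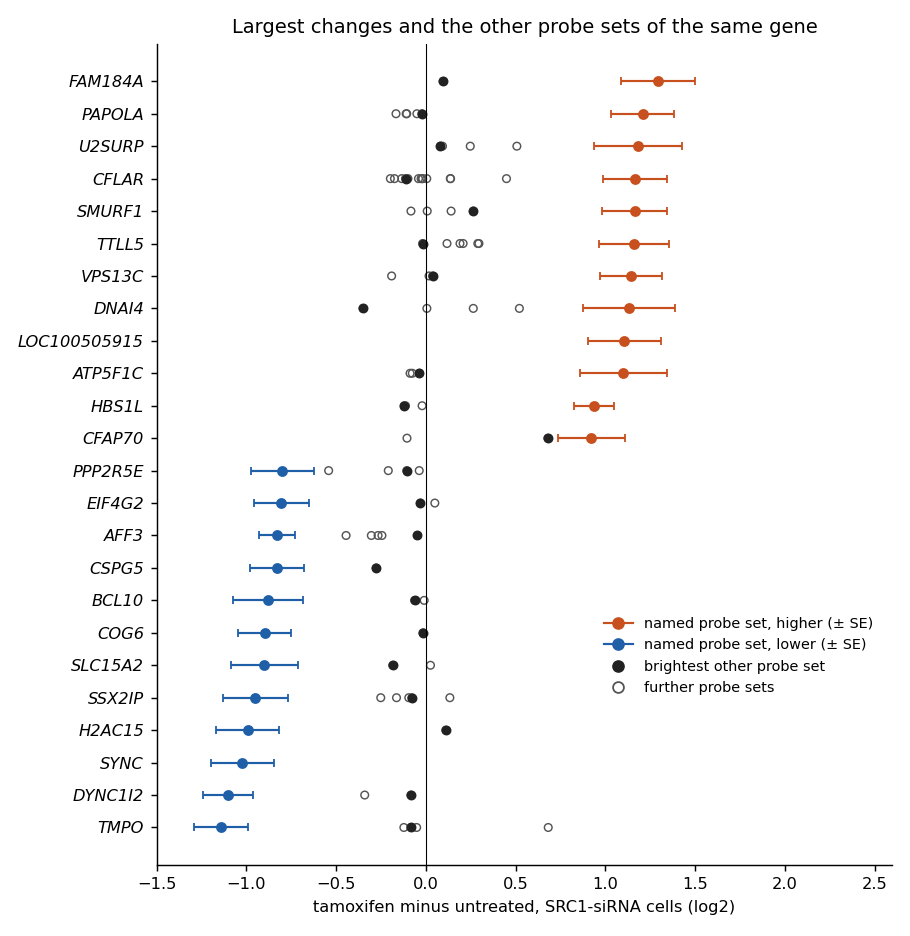
Tamoxifen change (log2) in SRC1-siRNA cells of the 24 named genes with the largest called changes: the named probe set (coloured, ± SE), the other probe set of highest signal (black) and further probe sets (open circles). The black points lie close to 0 in most rows, with CFAP70 at 0.68 and DNAI4 at -0.35 as the farthest.

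Of 19775 genes, 162 were called at their probe set of highest signal. In 79 of these it lay above the median signal, with 39 higher and 40 lower. Among all 54613 probe sets, 824 (1.51%) were called. Some examples were chosen after their values were seen. ASB13, a SOCS-box adaptor of ubiquitin ligases, read 8.49, 8.71, 8.67 and 8.97 untreated and 9.72 and 9.41 treated, a change of 0.86 ± 0.17 (limma adjusted p = 0.0295). RBM24, an RNA-binding protein, read 8.23, 8.29, 8.66 and 8.47 untreated and 9.34 and 9.12 treated, a change of 0.82 ± 0.15 (0.0245). Both treated arrays of either gene lay above all 4 untreated ones, and in control-siRNA cells the changes were 0.57 and 0.64, not called (0.0917 and 0.0594). SERTAD3, a transcriptional coregulator, fell from 9.42, 9.35, 9.30 and 9.32 to 8.81 and 8.84, a change of -0.52 ± 0.08 (0.0148). PLIN3, a coat protein of lipid droplets, fell by 0.55 ± 0.09 and FRAT1, an inhibitor of GSK3 in Wnt signalling, by 0.45 ± 0.10. All of these calls ended without treated replicate 1 (adjusted p from 0.136 to 0.276).

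Many of the largest changes could not be given to a gene. Of the 824 called probe sets, 344 (41.7%) had no single gene symbol, where 24.8% of those tested had none, and 16 of the 20 largest changes were among them. Of the called probe sets, 436 (52.9%) were at or below the median of 3.46, close to the share of all probe sets, of which 27331 of 54613 were above it. The largest rise of all, 1562208_a_at, went from 4.37, 3.69, 3.58 and 3.63 to 5.18 and 5.83, a change of 1.69 ± 0.26 (limma adjusted p = 0.0118). In 243827_at the arrays moved from 4.04, 4.13, 4.10 and 3.88 to 5.62 and 5.62, and the largest fall, in 243991_at, was from 4.59, 3.90, 4.36 and 4.64 to 2.88 and 3.23.

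Across 33 gene lists, 13 of 577 measured genes had a called probe set, 7 higher and 6 lower, and 20 lists had none. Of all genes, 2.33% had one. Higher were PHLDA1, NRIP1, SKIL, AKR1C1, TRA2A, ATP5F1C and PRKAR1A. SKIL, the SMAD corepressor SnoN, rose at 206675_s_at from 5.81, 5.96, 5.84 and 5.86 to 6.27 and 6.49, a change of 0.51 ± 0.10 (limma adjusted p = 0.0249), and gave 0.05 at its probe set of highest signal. PRKAR1A, a regulatory subunit of protein kinase A, rose by 0.92 ± 0.20 at 242482_at, and gave -0.04 at its highest signal. The steroid-metabolising enzyme AKR1C1 and the splicing factor TRA2A were called at 1 probe set each, both below the median signal. At their probe sets of highest signal they gave -0.03 and 0.01, not called.

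Lower were ZMAT3, TGFB2, KLF6, BCL2L2, PFKFB4 and CDH5. ZMAT3, an RNA-binding p53 target, fell at 228315_at from 8.57, 8.56, 8.63 and 8.75 to 8.04 and 8.19, a change of -0.52 ± 0.11 (limma adjusted p = 0.0363). At its probe set of highest signal ZMAT3 gave -0.07, not called. TGFB2, a transforming growth factor, fell at 220406_at from 4.50, 4.67, 4.52 and 4.56 to 3.91 and 4.29, a change of -0.46 ± 0.10 (0.0396). Its probe set of highest signal gave -0.20, not called. The Krueppel-like factor KLF6 fell by 0.35 at a probe set with a mean signal of 3.15, while its 2 probe sets above 10 gave -0.17 and -0.19, not called. The survival factor BCL2L2, the glycolysis regulator PFKFB4 and the endothelial cadherin CDH5 were called below the median signal. At their probe sets of highest signal BCL2L2 and PFKFB4 each gave -0.06, not called. Of these 13 genes, all but PHLDA1 lost their call without treated replicate 1. Calls of NRIP1, ATP5F1C, PRKAR1A, ZMAT3, KLF6 and TGFB2 also ended with any single untreated array left out. Those of SKIL, AKR1C1 and PFKFB4 held in 1 of these fits. In BCL2L2, CDH5, TRA2A and PHLDA1 a call held in each of them.

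Growth factor feedback genes were mostly below 0 apart from PHLDA1. Of 14 measured MAPK feedback genes and EGFR ligands, 9 were lower in both pairs and 2 higher, with a median of -0.14 (-0.19 to -0.04 with 1 of the 6 arrays left out), where 27.8% and 21.4% of all genes were. The phosphatase DUSP6 gave -0.22 ± 0.10, the receptor kinase inhibitor SPRY2 -0.22 ± 0.17 and the ligand HBEGF -0.26 ± 0.16, and none was called (limma adjusted p = 0.295, 0.554 and 0.449). In control-siRNA cells the median was 0.09. Of 22 immediate early genes, 12 were lower in both pairs and 2 higher, with a median of -0.07. FOS gave -1.61 in pair 1 and -0.21 in pair 3, and DUSP1 gave -1.19 and -0.08, so that the first pair carried most of both. MYC gave -0.43 and 0.27 in the pairs and -0.17 ± 0.15 in the fit (adjusted p = 0.634), against a called -0.81 in control-siRNA cells (0.034).

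Interferon response genes differed more between untreated arrays than with tamoxifen. The mean over 30 genes was 11.79, 11.37, 11.29 and 12.78 in untreated replicates 1 to 4 and 11.74 and 11.32 in treated replicates 1 and 3. Untreated replicate 4 stood well above the others, and each treated array lay closest to the untreated one of its own number. The median change was -0.21, the lowest of the 33 lists, and 26 of 30 genes were below 0, yet 0 were called by limma and 0 had an unadjusted p under 0.05. Without untreated replicate 4 the median was 0.05, and over replicates 1 and 3 alone it was -0.02. The antiviral protein gene IFIT1 gave -0.78 ± 0.91 in the fit but 0.03 and -0.05 within the pairs. The helicase gene DDX60 gave -0.59 ± 0.64 and 0.06 and -0.22. Antigen presentation genes averaged 10.87 and 10.79 in untreated and treated replicate 1, and 10.20 and 10.37 in replicate 3. Treated replicate 3 was there nearer to untreated replicate 2, at 10.43.

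Nuclear receptors and their coregulators gave 1 call. Over all genes, 2.33% had a called probe set, and 9178 of 54613 probe sets had an unadjusted p under 0.05. Of 27 receptors 0 were called by limma (9 with an unadjusted p under 0.05 at any of their probe sets), with RARA the nearest. Of 17 coregulators NRIP1 was called, and NCOA2, CREBBP and EP300 gave 0.10, 0.0006 and 0.16. Of 13 genes reported as SRC-1 dependent 0 were called (6 with an unadjusted p under 0.05 at any of their probe sets). Among them HOXC11, a homeobox partner of SRC-1, read 10.13, 10.22, 10.23 and 10.29 untreated and 9.83 and 10.05 treated. Its change of -0.27 ± 0.09 had an adjusted p of 0.126. The cyclic AMP phosphodiesterase PDE4B gave -0.74 ± 0.21 (0.095), with -1.28 and -0.51 in the pairs, and -0.99 in control-siRNA cells, called there (0.046). The list medians otherwise ran up to 0.07, for lysosome and autophagy genes.

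The same tamoxifen comparison in the 8 control-siRNA arrays, which shares no array with the SRC1-siRNA one, called 89 probe sets (0.163%). That count was 1 with the replicate number fitted, 2 when only the 8 arrays were fitted, 62 without control-siRNA treated replicate 1 and 1 to 4 without any other of the 8. Limma gave an unadjusted p under 0.05 at 8585 probe sets with control siRNA and at 9178 with SRC1 siRNA. Of the 89, 11 were also called in SRC1-siRNA cells, 12.4% of them and 1.33% of the 824. In 9 the direction was the same: PHLDA1, CISH at 2 probe sets, CD47, AFF3, SPMIP6 and 3 without a gene name. AFF3 at 243967_at fell by 0.83 ± 0.10 with SRC1 siRNA and by 0.51 ± 0.08 with control siRNA, and the difference was not called (interaction adjusted p = 0.24). CD47, the ligand of SIRP-alpha on phagocytes, rose by 0.46 and 0.42 at 213856_at, while its probe set of highest signal gave 0.03 and 0.08. The collagen receptor subunit ITGA2 went in opposite directions at 205032_at, 0.31 with SRC1 siRNA and -0.27 with control siRNA, and the difference was called (interaction adjusted p = 0.00924). Of the 824, 58.7% had the same sign in control-siRNA cells, against 48.4% of all probe sets.

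The difference of both responses was called at 153 probe sets (0.28%), of which 117 were among the 824 and 145 had changes of opposite sign. Both counts are largely set by the computation, since the difference contains the SRC1-siRNA change and is largest where the changes oppose each other. Over all probe sets, 48.4% had the same sign. A limma model that also fitted the replicate number called 0 differences, with 4879 at an unadjusted p under 0.05. The largest with a gene name was at 209754_s_at of TMPO, -1.71 (adjusted p = 0.00924), where control-siRNA cells gave 0.56 ± 0.12, not called (0.0722). At 209269_s_at, 1 of several probe sets of the tyrosine kinase SYK, the change with SRC1 siRNA was -0.62 ± 0.09, from 5.52, 5.54, 5.46 and 5.56 to 4.77 and 5.03. It was 0.30 ± 0.07 with control siRNA (interaction adjusted p = 0.013). CHST9 differed at both probe sets, by 0.86 and 0.84 (0.03 and 0.0341), and SKIL by 0.73 (0.0329). RECQL5, a DNA helicase with several probe sets, read 7.25, 7.18, 6.99 and 6.94 untreated and 7.67 and 7.59 treated at 221686_s_at. The difference between siRNAs at that probe set was 0.89 (0.03). Leaving out single arrays moved the count between 7 (without SRC1-siRNA treated replicate 1) and 346 (without control-siRNA treated replicate 1).

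**Figure D5:**
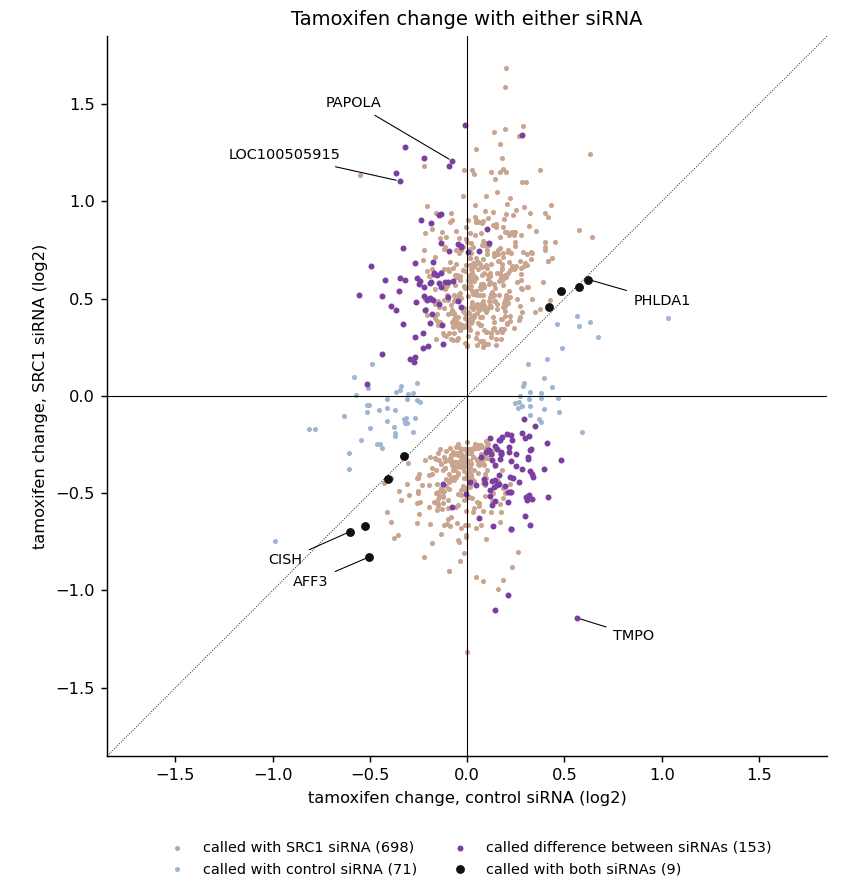
Tamoxifen change (log2) in control-siRNA cells on the x axis and in SRC1-siRNA cells on the y axis, for probe sets called in either comparison or for their difference. PHLDA1, CISH and AFF3 lie near the dotted line of equal change. The 153 probe sets with a called difference lie mostly in the quadrants of opposite sign, which the way the difference is computed favours.

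Promoter motifs were counted as a description. Promoter windows of genes with a called probe set numbered 538. A cyclic AMP response element, TGACGTCA, on either strand, was in 17 of them (3.16%) and in 1.65% of all 35116. For the AP-1 motif TGANTCA the shares were 4.46% and 6.57%, for the EGR motif GCGTGGGCG 0.558% and 0.72%, and for TTCNNNGAA 5.58% and 6.57%. The palindromic estrogen response element, with any 3 bases as spacer, was in 0 of the 538 and in 0.0399% of all. No test was made of these shares.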

How the data were processed

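RNA of LY2 cells had been amplified and hybridised to Affymetrix HG-U133 Plus 2.0 arrays, 1 array a sample. The deposited values are log2 signals of each probe set on each array, for which the submitters' processing notes name R 2.9.2. How the authors corrected background, normalized and summarised probes is not stated in the labels or headers. From them, 4 group means over 14 arrays were fitted in limma 3.58.1 (lmFit and eBayes, R 4.3.3), with Benjamini-Hochberg adjustment over 54613 probe sets and a threshold of 0.05. The 62 control probe sets were left out. A platform table gave 41091 probe sets 1 gene symbol, 1801 several and 11721 none, and only those with 1 were named. The script was tested on simulated data. Differences within pairs and promoter motifs were computed in Python 3.11.15 with pandas 2.3.3, numpy 2.4.6 and scipy 1.17.1.

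Genes named were the 12 highest and 12 lowest called changes above the median signal with the same direction in both pairs, NCOA1, called members of the lists or those of smallest p, genes with calls at several probe sets, and the 8 largest interactions a direction. The members of the comparison, the lists and the rule were chosen with earlier results of these data known. Other genes named were chosen after their values were seen. The alternatives tried were other scalings, filters, variance settings, array weights, gene means, fewer arrays and a replicate term. An analysis of the 2 SRC1-siRNA pairs alone and the STAT-like motif were added after seeing the data.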

Additional observations from a re-analysis of the deposited data

Results flagged for a closer look

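Among the 4 untreated SRC1-siRNA arrays, the one group of this comparison large enough, a value was singled out when the share of the group's range taken by its gap to the nearest other array passed Dixon's critical value. Of 152 sets of 4 values examined, from 119 named probe sets and 33 list means, 7 met this, and chance does so in about 1 of 20. For replicate 1 the share of the range was 0.987 at PTPRC 212588_at, 0.861 at CFAP70 229169_at and 0.835 at RPS14 214245_at. It was 0.938 at CDH5 204677_at for replicate 2, 0.892 at CACNB2 207776_s_at for replicate 4, and 0.852 at SERPINH1 207714_s_at for replicate 3. For replicate 3 it was 0.850 in the mean of immune cell markers.

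The tamoxifen change differed between SRC1-siRNA and control-siRNA cells by limma's interaction test at 20 named probe sets, given as SRC1-siRNA minus control-siRNA change on the log2 scale. Up to 8 genes a direction had been named because this same test called them, so their place here follows from that choice. The difference was above 0 at LOC100505915 (1.45), PAPOLA (1.29), the pseudogene PRKXP1 (1.09), SRSF4 241245_at (1.08), HBS1L (1.07), IGIP (0.95), CILP (0.92) and RECQL5 (0.89). It was also above 0 at CHST9 223737_x_at (0.86), CHST9 224400_s_at (0.84), SKIL (0.73) and GSAP 213142_x_at (0.69). It was below 0 at TMPO 209754_s_at (-1.71), DYNC1I2 (-1.24), SYNC (-1.23), CDCA2 (-0.94), SYK (-0.91), the shieldin gene SHLD1 (-0.91), ERICH1 (-0.91) and the homeobox gene HESX1 (-0.84). None of the interactions was called once the replicate number was a term of the model.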

How the results depend on the processing

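The count of 824 called probe sets in SRC1-siRNA cells was 109 when only the arrays compared were fitted, 258 without dim probe sets, 371 with array weights, 88 of genes when a gene's probe sets were averaged, and 3 to 656 with 1 array left out. It was 909 with median centring, 770 after quantile normalization and 925 with a trend in the variance. Over all probe sets the replicate number marked a structure in the values, whose origin was not tested. Same-numbered arrays of different groups tended to deviate from their group means in opposite directions. The 18 correlations of deviations between same-numbered arrays ran from -0.585 to -0.0421, with a median of -0.334, where 54 others had a median of 0.139. Within an siRNA the 6 ran from -0.314 to -0.0421, and above the median signal 2 of the 6 were above 0, up to 0.0478, although interferon genes were close between same-numbered arrays of an siRNA. With the replicate block 0 were called, and so were 0 over replicates 1 and 3 only (5794 with an unadjusted p under 0.05) and 0 with the block there (3629), while both SRC1-siRNA pairs alone with the block gave 1. The control-siRNA count of 89 was 1 with the block, 2 in its own arrays, 35 with centring, 232 with weights, 48 with gene means and 1 to 62 with an array left out. The interaction count of 153 was 0 with the block, 23 without dim probe sets, 22 with gene means, 0 over replicates 1 and 3 with or without the block (2470 and 4547 with an unadjusted p under 0.05), and 7 to 346 with an array left out.

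Signs turned in few named probe sets. Averaging a gene's probe sets gave AFF4 -0.012, AKR1C1 -0.021, FN1 0.038, NCOA1 0.039, NPC1 -0.0010, RIGI -0.17, TMPO 237863_at -0.14 and TNIK 213107_at 0.021, since the average includes probe sets of the other sign. Over replicates 1 and 3, with and without the block, and in both pairs alone, NCOA1 209106_at was 0.030. With 1 array left out, NCOA1 ran from -0.34 to 0.061 at 209105_at, from -0.20 to 0.17 at 209106_at and from -0.068 to 0.27 at 209107_x_at. Treated arrays number 2, so the spread between them is poorly known. Probe sets near the median signal are hard to tell from background.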
